A study of Mus musculus with 2 samples.

Results

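Genes that mark naive and memory T cells were followed in TR1 cells, the IL-10-producing CD4 T cells also known as type 1 regulatory T cells, in 2 samples. The genes were Lef1, Tcf7, Foxo1, Foxp1, Bach2, Satb1, Klf3, Igfbp4 and Dapl1, chosen by name. A gene was taken when a probe set, the group of probes that gives 1 value per gene region, carried its symbol alone in GEO's annotation of the array. Of the 9 genes, 8 were found this way, each with 1 probe set, out of 19937 genes in the table. No probe set carried the symbol Tcf7 alone in the annotation used here, so Tcf7 was not analysed here.

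The cells came from the small intestine of mice given anti-CD3 antibody (clone 2C11), which activates T cells through their receptor complex. Both groups were given 15 μg intraperitoneally 2 times with a day between, and were killed 4 or 48 hours after the last dose. The labels do not say which time applies to which sample, how many mice were pooled, how old they were or how the cells were sorted. The wildtype sample had an intact IL-10 receptor alpha chain. The impaired sample came from mice with the CD4-DNIL-10R transgene, a dominant-negative IL-10 receptor driven by the Cd4 promoter, so receptor signalling is blocked in Cd4-expressing cells and the endogenous gene is still there. Each group had 1 array, so every difference is a description of these arrays without an error or a test.

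Naive T cells that have not met antigen, and memory T cells that persist after it is gone, share a transcription program that favours long life and self-renewal over effector function. TCF1 (encoded by Tcf7) and LEF1 hold that program together, FOXO1 switches on homing and survival receptors, and BACH2 and FOXP1 restrain effector genes. T cell activation lowers many of these transcripts, and TR1 cells are activated effector-type cells.

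The promoters of the measured genes are shown first, because several of the encoded factors bind short sites that recur in each other's regulatory DNA. RefSeq windows of GRCm38.p6, reaching from 250 bases before to 50 bases after a transcript start, were searched on both strands for CTTTGA (bound by TCF1 and LEF1), GTAAACA (forkhead factors), TGANTCA (BACH2 and AP-1) and CACACCC (KLF factors). No motif overlapped another in the stretches below. The 8 measured genes had 17 windows, since Lef1, Foxp1 and Satb1 have several starts. Capitals mark the matches, read on the strand of the gene; TCAAAG is CTTTGA and GGGTGTG is CACACCC on the opposite strand.
Lef1 (chr3:131156064-131156229, plus strand): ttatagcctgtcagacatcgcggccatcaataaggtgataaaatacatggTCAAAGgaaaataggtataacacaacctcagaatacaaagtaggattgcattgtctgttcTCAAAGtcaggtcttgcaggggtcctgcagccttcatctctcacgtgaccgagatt
Bach2 (chr4:32417292-32417397, plus strand): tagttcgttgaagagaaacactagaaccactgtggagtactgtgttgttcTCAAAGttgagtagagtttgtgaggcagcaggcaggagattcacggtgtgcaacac
Foxp1 (chr6:99266664-99266765, minus strand): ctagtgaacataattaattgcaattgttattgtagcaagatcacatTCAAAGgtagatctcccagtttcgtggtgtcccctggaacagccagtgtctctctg
Igfbp4 (chr11:99041146-99041243, plus strand): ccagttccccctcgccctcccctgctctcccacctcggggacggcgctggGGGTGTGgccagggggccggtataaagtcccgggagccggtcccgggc
Satb1 (chr17:51833291-51833391, minus strand): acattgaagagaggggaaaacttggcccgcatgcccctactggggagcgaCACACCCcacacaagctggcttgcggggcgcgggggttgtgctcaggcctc
Dapl1 (chr2:59484439-59484545, plus strand): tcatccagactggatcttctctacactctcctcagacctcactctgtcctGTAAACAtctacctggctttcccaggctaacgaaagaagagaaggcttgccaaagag

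CTTTGA was present in 3 of the 17 windows, against 16.0% of the 32851 windows of all genes in the table. The Lef1 window held it at 180 and 120 bases before a start that lies 45997 bases downstream of the gene's first listed start. In Bach2 it lay 93 bases before the single listed start, and in Foxp1 204 bases before a start 254478 bases downstream of its first. CACACCC was found in 2 windows, 48 bases before the start of Igfbp4 and 51 bases before the first start of Satb1, and 7.95% of all windows held it. GTAAACA was found in 1 window, 164 bases before the start of Dapl1, against 3.65% of all windows. TGANTCA was in 0 of the 17 and in 7.81% of all windows. The windows of the measured genes ranged from 43.7% to 76.7% G or C with a median of 59%, beside a median of 52.7% over all windows. These matches describe letters and not binding.

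Values below are log2 RMA expression, in which 1 unit is a 2-fold difference in signal, and differences are impaired minus wildtype. A gene was kept when its brighter sample reached 6.91, the median of all probe sets, called the floor here. Of the 8 measured genes 7 passed it. Igfbp4, Klf3, Lef1, Bach2 and Foxp1 were brighter in the impaired sample and Satb1 and Foxo1 were dimmer, with differences from -0.13 to 0.74. Thus 5 of 7 lay above 0, where 50.2% of the 11124 genes past the floor did. At least 1.5-fold brighter were 2 of 7, against 5.89% of all genes, and 0 of 7 were 1.5-fold dimmer, against 1.5%. None of the 7 reached 2-fold in either direction, as 1.65% of all genes did (1.46% brighter and 0.198% dimmer). The median over the 7 was 0.29, beside 0.0025 over all genes past the floor. Igfbp4 passed the floor through the impaired sample alone, so it had to differ in that direction to be counted. Without a floor 6 of all 8 measured genes lay above 0 and their median was 0.33. In bulk samples, a smaller share of cells of a type and less RNA per cell cannot be told apart.

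**Figure D1:**
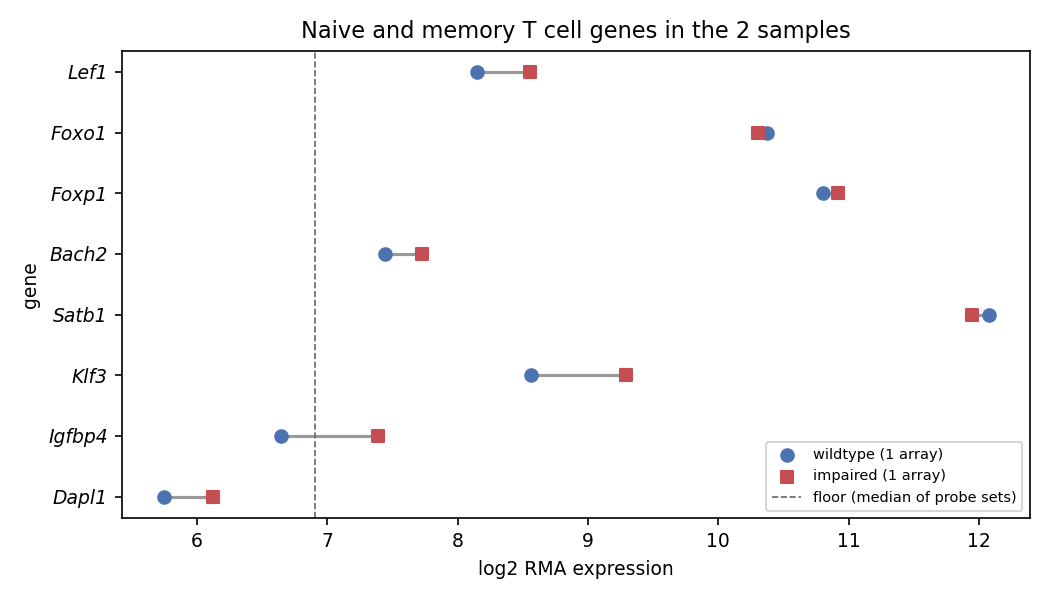
Each row is 1 gene, with the log2 RMA expression of the wildtype array (circle) and the impaired array (square); the dashed line is the floor of 6.91. Levels are to be compared within a row only, and Klf3 and Igfbp4 show the widest gaps, of 0.73 and 0.74.

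Lef1 encodes LEF1, an HMG-box factor that acts with TCF1 and, when Wnt signals stabilise beta-catenin, with beta-catenin. Its probe set (10496091, Entrez gene 16842) gave 8.15 for wildtype and 8.56 for impaired. The impaired sample was the brighter by 0.41, or 1.33-fold. The difference exceeded that of 89.9% of genes past the floor. Among the 1286 genes whose mean level lay within 0.25 of that of Lef1 (genes of like brightness, a window used for each gene in turn), it exceeded 87.6%.

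The forkhead factors differed little. Foxo1 encodes FOXO1, which is kept out of the nucleus by AKT after T cell receptor or growth factor signals and otherwise drives Il7r, Klf2 and homing receptors. It had a wildtype level of 10.37 and an impaired level of 10.31 (probe set 10491962, Entrez gene 56458). The difference of -0.07 was close to the median of -0.06 over the 902 genes of like brightness. After intensity-dependent centring it was -0.0017, which leaves it without a direction.

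Foxp1 encodes FOXP1, a repressor that keeps naive T cells quiescent. It had a wildtype level of 10.80 and an impaired level of 10.92 (probe set 10546661, Entrez gene 108655). The impaired sample was the brighter by 0.12, or 1.08-fold. That exceeded 67.0% of all genes past the floor and 80.3% of the 659 genes of like brightness, whose median was -0.05.

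Bach2 encodes BACH2, which binds AP-1 sites and holds back effector genes. Its probe set (10503695, Entrez gene 12014) gave 7.44 for wildtype and 7.73 for impaired. The difference of 0.29, or 1.22-fold, exceeded 84.1% of all genes past the floor. Genes of like brightness themselves had a median of 0.11, and the difference of Bach2 exceeded 74.0% of those 1259.

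Satb1 encodes SATB1, an organiser of chromatin that is high in thymocytes and naive T cells. It had a wildtype level of 12.07 and an impaired level of 11.95 (probe set 10451763, Entrez gene 20230). It was the gene with the lowest difference of the 7, at -0.13, or 1.09-fold dimmer in the impaired sample. Of the 243 genes of like brightness 28.4% had a lower difference.

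Klf3 encodes KLF3, a zinc finger repressor that competes with other KLF factors at CACCC-type sites and is made in lymphocytes and in epithelia. It had a wildtype level of 8.56 and an impaired level of 9.29 (probe set 10522051, Entrez gene 16599). The impaired sample was the brighter by 0.73, or 1.66-fold. Only 412 of the 11124 genes had a higher difference, and among the 1332 genes of like brightness it exceeded 96.1%. Both values lay past the floor.

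Igfbp4 encodes a secreted protein that binds insulin-like growth factors and marks naive T cells, and fibroblasts and crypt cells also make it. It had a wildtype level of 6.65 and an impaired level of 7.39 (probe set 10381096, Entrez gene 16010). The impaired sample was the brighter by 0.74, or 1.67-fold, and 399 genes had a higher difference. The wildtype value lay below the floor, where RMA keeps part of the background, so the size is uncertain. Genes of like brightness had a median of 0.16, and the difference of Igfbp4 exceeded 97.3% of those 1356.

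Dapl1 encodes a small protein related to death-associated protein and is high in naive and memory T cells. It had a wildtype level of 5.74 and an impaired level of 6.13 (probe set 10472235, Entrez gene 76747). Both values lay below the floor, and the gene stays out of the counts. Its difference of 0.38 describes signal near background.

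**Figure D2:**
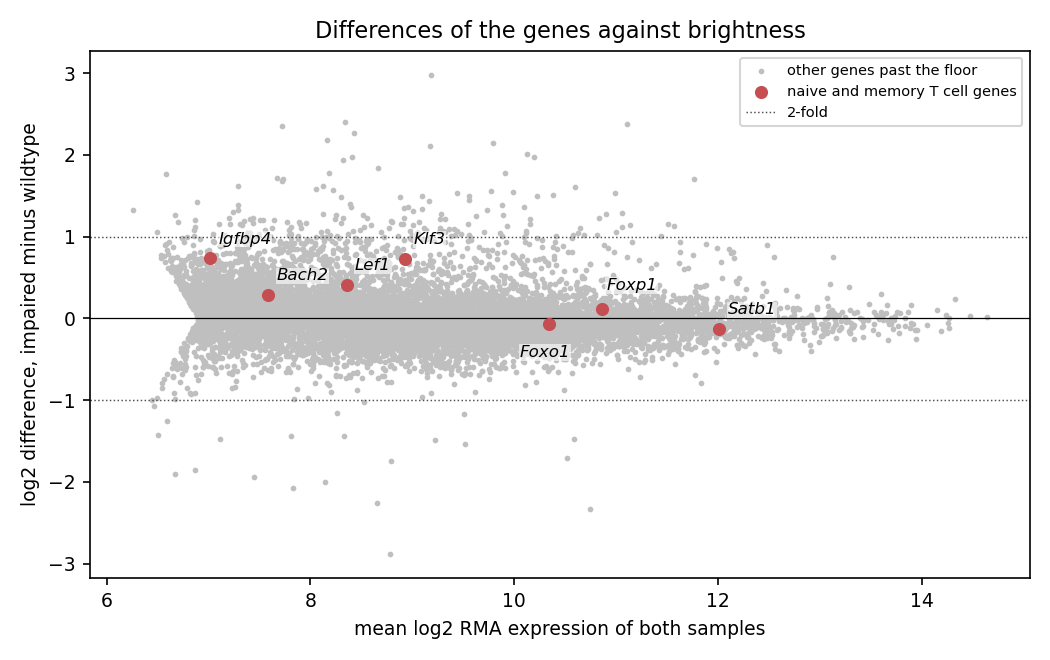
Each point is a gene past the floor, with the mean log2 RMA expression of both arrays on the horizontal and the log2 difference (impaired minus wildtype) on the vertical axis; dotted lines mark 2-fold. Klf3 (0.73) and Igfbp4 (0.74) lie near the upper edge of the cloud, and Foxo1 (-0.07), Foxp1 (0.12) and Satb1 (-0.13) near its middle.

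A stricter floor gave other counts. Of the 7 genes, 4 (Foxo1, Foxp1, Satb1 and Klf3) also passed a stricter floor of 8.86, the 75th percentile of probe sets, and 2 of these 4 were above 0, against 40.7% of the 5949 genes past it. Their median was 0.025 (all such genes: -0.05), and Klf3 alone of the 4 exceeded 1.5-fold, against 4.94% of those genes. Klf3 passed the stricter floor through its impaired value alone. Lef1, Bach2 and Igfbp4, which lay between the floors, were 3 of 3 above 0 with a median of 0.41, and 1 of the 3, Igfbp4, exceeded 1.5-fold, against 6.98% of genes between the floors. Both floors are set on the brighter sample, so the difference itself helped to place Klf3 and Igfbp4, and the counts on either side support no relation with brightness. Of those 5175 genes 61.1% were above 0 and their median was 0.08.

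**Figure D3:**
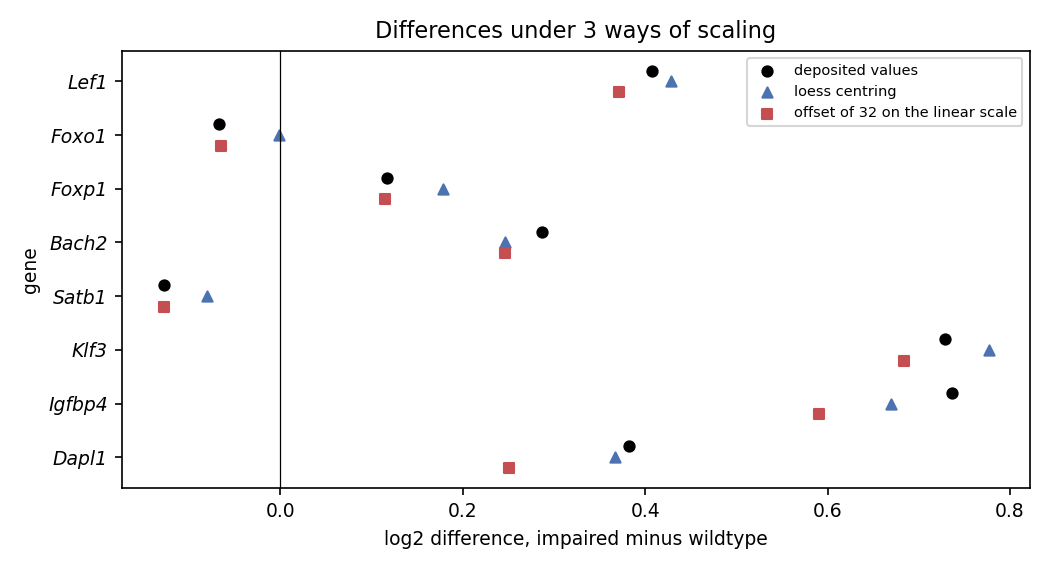
Each row is 1 gene, and the symbols give its log2 difference (impaired minus wildtype) from the deposited values, after loess centring against brightness, and with 32 added to the unlogged values. Igfbp4 runs from 0.59 to 0.74 and Klf3 from 0.68 to 0.78, while Foxo1 reaches -0.0017 after centring.

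Other genes of naive and memory T cells, from lists set beside the 9, lay on both sides of 0 and stayed under 2-fold. Of 12 receptors and survival genes 10 were measured and passed the floor, with 6 above 0, 4 below and a median of 0.07, where 50.2% of all genes past the floor lay above 0. Ccr7, the chemokine receptor that guides naive and central memory cells into lymph nodes, had a wildtype level of 8.06 and an impaired level of 8.51, a difference of 0.46. Il7r, the receptor for the survival cytokine IL-7, differed by 0.27, and Il6st, the signalling chain of the IL-6 receptor, by -0.24. None of the 10 reached 1.5-fold in either direction, against 5.89% of all genes brighter and 1.5% dimmer. Of the 10, 1 passed the floor through the impaired sample alone, so it had to lie above 0.

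A second list held 24 further genes of the program, of which 22 were measured and 20 passed the floor. There 13 were above 0 and 7 below, the median was 0.19, and 3 were at least 1.5-fold brighter and 0 dimmer, against 5.89% and 1.5% of all genes. The 3 were Als2cl (0.64), Cd55, which shields cells from complement (0.63, past the floor in the impaired sample alone), and Actn1, an actin crosslinker (0.61). Of the 20 genes past the floor 3, Cd55 among them, passed through the impaired sample alone, so these had to lie above 0. Past the stricter floor the medians of the first and second list were 0.03 and -0.01.

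Genes of the opposite, effector state were evenly split. Of 25 effector genes 24 passed the floor, with 12 above 0, 12 below and a median of 0.04. Over all genes past the floor, 50.2% were above 0. The effector genes with the largest differences were Anxa2, a membrane-binding annexin (0.60), Lgals3, which encodes galectin-3 (0.53), and S100a6, a calcium-binding protein (0.46). Of the 12 below 0, Gzma (-0.26), Zeb2 (-0.24) and Cxcr6 (-0.21), chosen after their values were seen, differed most. Epithelial and myeloid cells also make all 3, and the markers of those cells were brighter in the impaired sample (values below). Their part in these differences was not tested.

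The partners and targets of single members were taken next. For LEF1, 19 of 21 genes of the Wnt pathway passed the floor, 1 of them through the impaired sample alone. Of the 19, 13 were above 0 and 6 below, with a median of 0.15. Over all genes past the floor, 50.2% were above 0. Jup, which encodes the beta-catenin relative plakoglobin, differed by 0.88, Ccnd1, cyclin D1, by 0.75, and Ctbp2, a co-repressor, by 0.66. These 3 were the ones past 1.5-fold, where 5.89% of all genes were at least 1.5-fold brighter. All 3 are also made by intestinal epithelium, and its part in these differences was not tested. Axin2, a direct Wnt target chosen here after its value was seen, was at 7.61 and 7.54, a difference of -0.07.

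For FOXO1, kinases and other regulators had a median of -0.03 over 17 genes, 6 above 0 and 10 below, and none reached 1.5-fold. Sirt1, a deacetylase of FOXO1, differed by -0.29, Akt2, a kinase that inactivates it, by -0.28, and Pik3cg, a PI3K subunit, by -0.20. FOXO1 targets had a median of 0.04 over 18 genes, 10 above 0 and 8 below, and none reached 1.5-fold. Of these 18, 1 passed the floor through the impaired sample alone. Besides Ccr7, the largest differences were those of Gadd45a, a stress gene (0.39), and Irs2, an insulin receptor substrate (0.39). The median over all genes past the floor, for comparison, was 0.0025, and 50.2% of them lay above 0. Of all these genes 5.89% were at least 1.5-fold brighter and 1.5% at least 1.5-fold dimmer.

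For BACH2, 16 of 20 partners and targets passed the floor, with 11 above 0, 5 below and a median of 0.09. Over all genes past the floor, 50.2% were above 0. Il4, the TH2 cytokine that BACH2 restrains, had a wildtype level of 8.28 and an impaired level of 9.13, a difference of 0.86. It was the 1 gene past 1.5-fold, where 5.89% of all genes were at least 1.5-fold brighter. Ccr4, a TH2 chemokine receptor, differed by 0.43 and S100a4, a calcium-binding protein of effector cells, by 0.42. Prdm1, of the same list and chosen after its value was seen, went the other way, at 12.17 and 11.97, a difference of -0.20. Bach2 itself was brighter in the impaired sample, by 0.29, and a relation between Bach2 and these genes was not tested.

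**Figure D4:**
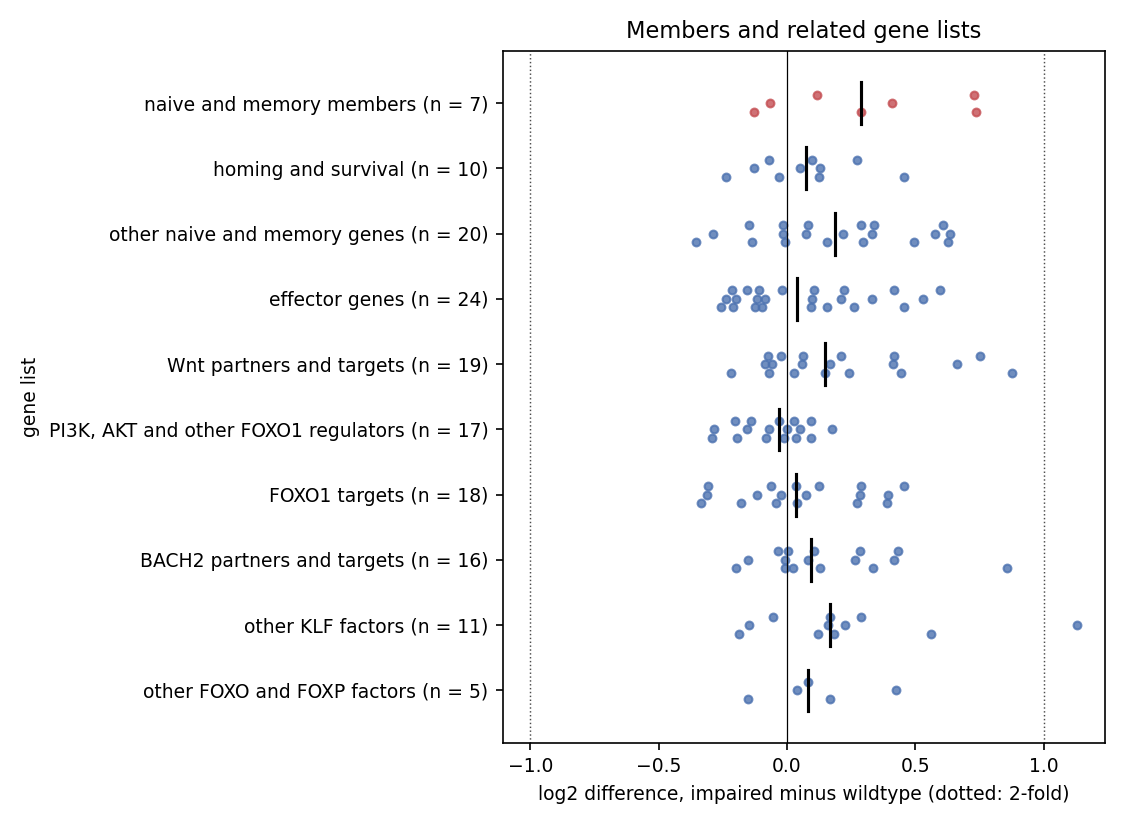
Each point is a gene past the floor, placed by its log2 difference (impaired minus wildtype) in the row of its list; black bars are medians and dotted lines 2-fold. Some genes are in more than 1 list, the 7 naive and memory genes have a median of 0.29, and Klf5, at 1.13, is the one point beyond 2-fold.

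Relatives of the genes by family gave a comparison at the level of paralogs. Of 16 other KLF factors 11 passed the floor, with 8 above 0, 3 below and a median of 0.17. Over all genes past the floor, 50.2% were above 0. Klf5, a factor of proliferating crypt epithelium, had a wildtype level of 9.37 and an impaired level of 10.50, a difference of 1.13. Klf4, a factor of differentiated epithelium, differed by 0.56. Klf2, the KLF factor of quiescent T cells, was at 7.97 and 8.26, a difference of 0.29. The difference of Klf3, at 0.73, lay between those of Klf5 and Klf4.

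Tcf7l2, the TCF factor of intestinal epithelium, had a wildtype level of 7.59 and an impaired level of 8.16, a difference of 0.56 beside 0.41 for Lef1. Of the other FOXO and FOXP genes 5 passed the floor, with a median of 0.08. Among them were Foxo6 (0.42, wildtype value below the floor), Foxp4 (0.17) and Foxo4 (-0.15). Bach1 differed by 0.20, and Igfbp7, the 1 other IGF binding protein past the floor and a gene of stroma and vessels, by 0.58. Dap, the paralog after which Dapl1 is named, was at 11.67 and 12.06, a difference of 0.40.

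Markers of the profiled cells were read from the same arrays. T cell markers were past the floor for all 14 measured of 16, with a median of -0.01 and a summed linear signal (the sum of the unlogged values) of 70231 for wildtype and 68775 for impaired. Cd3e had levels of 13.58 (wildtype) and 13.57 (impaired), and Cd4 was at 13.14 and 13.18. TR1 markers were past the floor for all 13, with a median of -0.05. After loess centring these medians were 0.03 and 0.0081, so they have no settled direction. Il10 stood at 12.94 and 12.92. Entpd1, with a difference of 0.61, was the 1 TR1 marker at least 1.5-fold brighter, against 5.89% of all genes. Il10ra, the targeted receptor chain, had a wildtype level of 9.92 and an impaired level of 12.30, and whether its probe set detects the transgene is not known. CD8 and gamma-delta T cell markers were past the floor for all 6 measured of 10, with 3 above 0, 3 below and a median of 0.0095. Over all genes past the floor, 50.2% lay above 0. Cd8a (-0.70), Trgv1 (-0.40) and Cd8b1 (-0.09) were dimmer in the impaired sample. Eomes (0.26, wildtype value below the floor), Sox13 (0.24) and Crtam (0.11) were brighter. The summed signal of that list was 14654 for wildtype and 10835 for impaired, and past the stricter floor its median was -0.40.

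Markers of intestinal cells other than T cells also passed the floor, and most were brighter in the impaired sample. Enterocyte markers were past the floor for 15 of 15, and all 15 lay above 0, against 50.2% of all genes past the floor. Their median was 0.98 and their summed signal 16918 for wildtype and 31067 for impaired. Goblet and Paneth cell markers were past it for 11 of 12, with a median of 0.89 and sums of 29065 and 49393. Of the 11, 2 passed the floor through the impaired sample alone. Crypt stem cell markers were past it for 8 of 10, 1 of them through the impaired sample alone, with sums of 2804 and 4970. Their median was 0.28 (0.38 without a floor and 0.45 past the stricter one). Olfm4 had the largest difference of that list, 2.01, with levels of 11.127 for impaired and 9.115 for wildtype. It was the 1 gene of the list past 2-fold, and the sums depend strongly on it. The defining marker Lgr5 lay below the floor in both samples, at 5.70 and 6.08. Klf3, which epithelia also make, shares its direction with these 3 lists. Their part in its difference was not tested.

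Stromal and endothelial markers were past the floor for 9 of 14, with a median of 0.52 and sums of 1602 and 2030. Of the 9, 5 passed through the impaired sample alone, and without a floor the median of all 14 was 0.18. Dcn, decorin of fibroblasts, had a wildtype level of 6.11 and an impaired level of 7.29, while Col1a1, a fibroblast collagen chosen after its value was seen, was at 7.98 and 8.04. Of the endothelial markers Cdh5 and Kdr lay below the floor in both, and Pecam1 was past it in both at 8.14 and 8.53. Igfbp4, which fibroblasts also make, was brighter in the same sample, and the part of stroma in that was not tested.

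B cells also carry Bach2, Foxp1, Foxo1 and Klf3 and, early in development, Lef1. Of 14 B cell markers 13 were measured and 2 passed the floor, Blnk (difference 0.99) and Cd79b (0.60), and without a floor the median of the 13 was 0.30. The defining markers Ms4a1, Cd79a and Pax5 lay below the floor in both samples, at 5.54, 5.43 and 6.09 in the wildtype and 6.07, 5.73 and 6.32 in the impaired one. The summed signal was 1299 for wildtype and 1783 for impaired. RMA values do not reach 0, so markers below the floor cannot tell a small share of B cells from none. Ighm, an immunoglobulin gene listed here with the plasma cell markers, was past the floor on both arrays. Its wildtype level was 8.16 and its impaired level 9.22. The difference of 1.06 was the largest of that list, where 5 genes past the floor lay above 0 and 1 below. The part of B cells in these differences was not tested.

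Neutrophil markers were past the floor for 9 of 12, with a median of 1.84 (1.68 without a floor) and sums of 2210 and 6984. Of the 9, 3 passed through the impaired sample alone. Macrophage and monocyte markers were past the floor for 6 of 12, 2 of them through the impaired sample alone, with sums of 4049 and 4124. Of the 6, 5 were above 0 and 1 below, with a median of 0.58, where 50.2% of all genes past the floor lay above 0. The macrophage and monocyte median was 0.21 without a floor and 0.09 past the stricter floor. Plasma cell markers had a median of 0.26 over 6 past the floor (0.16 without a floor). Of those 6, 1 passed through the impaired sample alone. Dendritic cell markers had a median of 0.16 over 2, and natural killer and innate lymphoid cell markers 0.36 over 2. Without a floor the last median was -0.03, so that list has no settled direction. Pancreatic acinar markers went the other way, past the floor for 10 of 12 with a median of -1.58 and sums of 11312 and 4183. None of the 9 naive and memory genes is in these marker lists, and the part of such cells in their values was not tested.

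**Figure D5:**
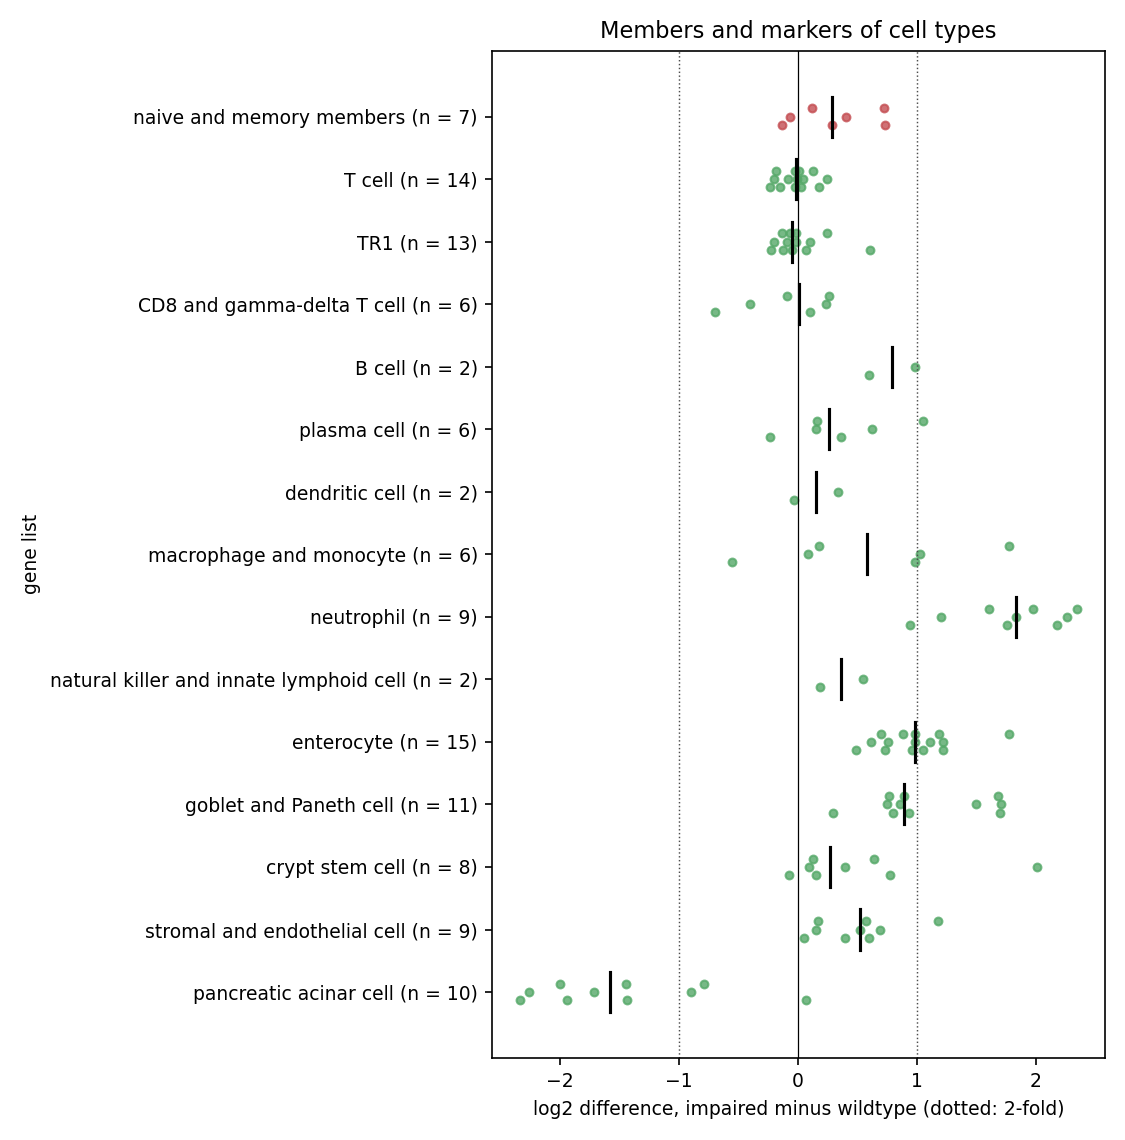
Each point is a gene past the floor, placed by its log2 difference (impaired minus wildtype) in the row of the cell type it marks; black bars are medians and dotted lines 2-fold. T cell and TR1 markers have medians around 0 (-0.01 and -0.05, which turn to 0.03 and 0.0081 after loess centring). The medians of the enterocyte (0.98) and neutrophil (1.84) rows lie to the right of that of the naive and memory genes (0.29). The enterocyte points overlap those of the naive and memory genes.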

How the data were processed

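The deposited values are log2 expression per probe set from 2 Affymetrix arrays, made by the authors with affy and RMA per the submitters' processing notes; the software versions, genome build and probe annotation behind them are not stated in the sources used here. RMA corrects background, equalises the arrays and summarises probes, and it compresses folds at low signal. Scanner files were not used here. Of 34760 probe sets 21640 had 1 gene symbol in GEO's platform annotation and were used, 1321 had several and 11799 were not listed. The brightest of a gene's probe sets stood for it. The floor, fold rule and lists are as given with the results. With 1 array per group there was no test, and the number of arrays limits precision. The members and lists were chosen with earlier results of these data known. The genes named are all members, up to 3 of each related list with the largest differences, any past 2-fold in a related list, and Il10ra, Il10, Cd3e and Cd4. For some marker lists 1 or 2 genes with the largest differences are named, and for others none. Pecam1, Cdh5 and Kdr are named as the endothelial markers of their list. The measured CD8 and gamma-delta T cell markers are named in full. Any other gene is a defining marker or is said to be chosen after seeing its value. Alternatives were loess centring (span 0.2), an offset of 32, the mean of probe sets, a stricter floor (75th percentile), no floor and a 1.5-fold rule. The scripts were tested on simulated data. The software was Python 3.11.15 with pandas 2.3.3, statsmodels 0.14.6, numpy 2.4.6 and matplotlib 3.10.9.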

Additional observations from a re-analysis of the deposited data

How the results depend on the processing

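Past the stricter floor of 8.86 the median difference of the naive and memory T cell genes fell from 0.29 to 0.025, and 2 genes were above 0 in place of 5, because Lef1, Bach2 and Igfbp4 no longer passed. With a 1.5-fold rule 2 genes counted as different in place of 0. With an offset of 32 on the linear scale the difference of Igfbp4 was 0.59 and that of Dapl1 0.25. The other values for the 8 genes moved by at most 0.1 on the log2 scale, or stayed within 1.5 times for counts. Each gene had 1 probe set, so averaging probe sets changed none of them. With 1 array per genotype no replicate could be left out. No paired analysis was possible because each group has a single sample and no test was made. Low signal limits Igfbp4 and Dapl1 most.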
